A study of Mus musculus with 6 samples.

Results

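The genes described here are 43 antioxidant, glutathione and NRF2 target genes, taken by name from the gene tables of the 6 libraries. They are 43 of 56884 gene IDs in the tables, and all 43 passed a filter on low levels, a TPM (transcript abundance scaled to the same total in each library) no lower than 0.5 in 3 or more libraries, as did 15426 genes in all. The libraries came from an immortalized cell line of the stromal vascular fraction of mouse subcutaneous white adipose tissue, the fraction that holds adipocyte precursors. The cells overexpressed HA-tagged mouse PPARγ2 (PPARr2 in the sample labels) from a retroviral vector under puromycin selection, and they kept their own *Pparg* gene. In 3 libraries the PPARγ2 was the K382Q mutant, which mimics acetylation of the lysine at that position, and in 3 it was the K382R mutant, which mimics the deacetylated form. All 6 cultures were at day 2 of beige adipocyte differentiation in medium with isobutylmethylxanthine, indomethacin, dexamethasone, insulin, T3 and the PPARγ agonist rosiglitazone. The series compares the mutants to ask what acetylation at this lysine changes in beige differentiation, and no cells with wild-type PPARγ2 or an empty vector were analysed here. The labels call the replicates biological, but they do not say whether each came from its own infection, so p-values measure the spread between these cultures.

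NRF2, encoded by *Nfe2l2*, is the transcription factor that raises the synthesis of antioxidant and detoxifying enzymes. KEAP1 holds it in the cytosol and marks it for degradation until oxidants or electrophiles modify KEAP1. NRF2 then pairs with a small MAF protein and binds antioxidant response elements (AREs) near its targets. Those targets make and recycle glutathione and thioredoxin, which pass on electrons from NADPH to glutathione peroxidases and peroxiredoxins, and glutathione is also joined to electrophiles by glutathione transferases. Differentiating adipocytes form hydrogen peroxide in mitochondria and peroxisomes, and superoxide dismutases and catalase also take part in removing reactive oxygen.

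The ARE core, TGACNNNGC, was searched on both strands in the RefSeq promoter windows (GRCm38.p6), which run from 250 bases before to 50 after an annotated start. Of the 43 genes, 37 had a window, and 11 of these (29.7%) held the core, against 14.0% of 27025 genes with a window. The 11 were *Nfe2l2*, *Gclm*, *Txnrd1*, *Srxn1*, *Prdx1*, *Prxl2a*, *Sod1*, *Mgst1*, *Gsta3*, *Pgd* and *G6pdx*. A match to these letters is a description and not a binding site. The PPAR-RXR direct repeat, AGGTCA followed in the same direction by a second AGGTCA after 1 base of any kind, was also searched on both strands, and was in 0 of the 37 and in 0.0481% of all genes with a window. With only 13 of 27025 genes holding it, the exact repeat is too rare for the 0 to show whether these genes lack PPAR sites. The matches of 5 genes are shown with 10 bases on either side, 5′ to 3′ on the strand of the gene, with the core in capitals. They are *Gclm*, *Txnrd1*, *Prdx1* and *Prxl2a*, which were called, and *Srxn1*, whose call depended on the scaling. Of the genes not shown, *Nfe2l2* was also called with TPM, as were *Mgst1* and *G6pdx*, whose calls depended on the scaling. In all 5 shown, the core lay on the opposite strand and so reads as its reverse complement. In *Nfe2l2*, *Gsta3* and *Pgd*, not shown, it lay on the strand of the gene.
Gclm, GRCm38.p6 chr3:122245413-122245441, plus strand: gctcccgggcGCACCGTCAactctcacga
Txnrd1, GRCm38.p6 chr10:82859104-82859132, plus strand: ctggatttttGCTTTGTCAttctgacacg
Srxn1, GRCm38.p6 chr2:152105542-152105570, plus strand: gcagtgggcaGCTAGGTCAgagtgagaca
Prdx1, GRCm38.p6 chr4:116685456-116685484, plus strand: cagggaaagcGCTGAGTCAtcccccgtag
Prxl2a, GRCm38.p6 chr14:41008273-41008301, minus strand: ccctccctatGCCTGGTCAccctgcctac
The matches of *Gclm*, *Txnrd1*, *Prdx1* and *Prxl2a* began 134, 92, 133 and 25 bases before an annotated start, and that of *Srxn1* lay 29 bases into its transcript. *Prxl2a* and *Txnrd1* have several annotated starts, and the tables do not say which one these cells used.

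The depth of the libraries, for which coverage was divided by FPKM, was 5.95 to 7.50 Gb of aligned reads in K382Q and 6.53 to 8.15 Gb in K382R. Of 8 adipocyte markers, 4 were lower in K382Q with TPM (*Adipoq* at 0.411, *Cebpa* at 0.568, *Pparg* at 0.745 and *Lpl* at 0.880 times their K382R level) and 2 were higher (*Fabp4* and *Cd36*). Their summed TPM, nearly all of it *Fabp4*, was 53021 to 56608 in K382Q and 44281 to 45433 in K382R. Some of these calls depended on the scaling. *Lpl* was not called after median-ratio scaling (log2 fold change -0.033), where *Plin1* was called higher (0.10), and *Fabp4* was not called with quantile normalization. Of 8 brown or beige markers, 5 were tested, of which *Ucp1*, *Cidea*, *Elovl3* and *Ppargc1a* were higher and *Hoxc9* lower (log2 fold change -0.51), and *Zic1* was listed at 0. *Ucp1* and *Cidea* passed the filter only through their K382Q libraries, so their place among the tested markers depends on their rise. Their mean TPM was 0.917 and 4.53 in K382Q and 0.0863 and 0.431 in K382R. *Prdm16* and *Dio2* were too low to be tested. The summed TPM of the 8 markers, mostly *Elovl3*, was 301 to 311 against 157 to 159. *Fabp4* alone took 4.64% to 5.03% of all TPM in K382Q and 3.74% to 3.85% in K382R. Of 8 preadipocyte or fibroblast markers, 5 were tested and all 5 were lower in K382Q, with a summed TPM of 508 to 552 against 866 to 903, while *Dpp4* was listed at 0 throughout. The smooth muscle or pericyte markers summed to a TPM of 5.67 to 7.07 against 16.9 to 18.1, and of the 2 tested *Acta2* was lower (log2 fold change -3.44) and *Des* higher (0.57). Leukocyte markers summed to at most 5.18 in any library, nearly all of it *Cd68*, with *Adgre1* and *Cd3e* at 0, and endothelial markers summed to at most 2.25. Mesothelial markers, mostly *Krt19*, summed to 374 to 398 in K382Q against 416 to 428 in K382R, and *Msln* was lower under all 3 scalings (log2 fold change -1.56). *Msln* passed the filter only through K382R, at a mean TPM of 1.67 against 0.233 in K382Q. *Krt19* was called lower with TPM (-0.12) and not after median-ratio scaling (0.030) or quantile normalization (-0.055). The part of these cell states in the results below was not tested, and in bulk RNA fewer cells of a type and less RNA per cell cannot be told apart. *Pparg* itself, whose reads can come from the vector or from the cell's own gene, had a TPM of 1333, 1164 and 1104 in K382Q and 1590.0, 1632 and 1612 in K382R, a log2 fold change of -0.43 (SE, the standard error, 0.0638, adjusted p = 0.000977 with limma).

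The levels of the 43 genes spanned 3 orders of magnitude. The most abundant was *Sod1*, the cytosolic superoxide dismutase, at a mean TPM of 1666 ± 18.8 (SD, n = 3) in K382Q and 1607 ± 11.9 (SD, n = 3) in K382R. *Gpx4*, the peroxidase that reduces lipid hydroperoxides in membranes, followed at 1137 ± 22.5 and 1075 ± 5.94 (SD, n = 3 each). In all, 21 genes had a mean TPM of at least 100 over the 6 libraries, 17 lay between 10 and 100, and 5 lay below 10. The lowest were *Gpx3*, *Gstk1* and *Gsta3*, each with a mean TPM under 2. Summed over the 43 genes, the TPM was 10054 ± 17.5 (SD, n = 3) in K382Q and 10570.2 ± 18.7 (SD, n = 3) in K382R, a ratio of 0.951. The direction of this sum depends on the scale. Median-ratio scaling divides the TPM by 0.939 to 0.962 in K382Q and by 1.05 to 1.06 in K382R, and the sum is then higher in K382Q.

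With TPM, 20 of the 26 called genes were lower in K382Q, as were 5698 of the 7415 called among all genes tested, and after median-ratio scaling 12 were lower and 12 higher. The largest single change was a rise. *Prxl2a* had 2.32 times and *Cat* 1.56 times their K382R level, and *Gpx1*, *Gclm*, *Gpx7*, *Txnrd1* and *Nqo1* had 0.510, 0.589, 0.630, 0.686 and 0.699 times theirs. The test was limma's on log2(TPM + 0.5), and a gene was called at a Benjamini-Hochberg adjusted p-value under 0.05 over all 15426 genes. Of the 43 genes, 26 were called (60.5%, against 48.1% of all genes tested). Of these, 20 were lower (46.5%, against 36.9% of all genes tested) and 6 higher (14.0%, against 11.1%), and the other 17 were not called. The K382Q libraries lay wholly below the K382R libraries for 23 genes (53.5%, against 42.8% of all genes tested) and wholly above for 7 (16.3%, against 14.1%), while 57% of all genes tested were apart one way or the other. Only *Prxl2a* also passed a fold change over 2, the further threshold of a differentially expressed gene (DEG) in the study, which 3.88% of all genes tested passed, 1.27% higher and 2.61% lower. The shares of the 43 called higher and wholly above stood near those of all genes with TPM. The number called higher fell to 2 of the 43 with no intensity trend, without K382Q replicate 2 and without K382R replicate 2, where 1574, 1479 and 1469 of the 15426 genes were called higher. In the TPM fit the shares called lower and wholly below were about 10 percentage points above those of all genes.

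The scale bears on the counts. The median log2 fold change of all genes tested was -0.14, and that of the 43 was -0.12, so a gene at -0.14 sat at the median gene. Median-ratio scaling of the TPM brought the median of all genes to 0.0032 and that of the 43 to 0.032. It then called 12 of the 43 lower (27.9%, against 20.4% of all genes tested) and 12 higher (27.9%, against 19.8%), where 40.3% of all genes were called. Quantile normalization called 16 lower and 7 higher, against 21% and 19.1% of all genes and 40.2% either way. With TPM, median-ratio scaling and quantile normalization alike, 12 genes were lower (27.9%, against 19.7% of all genes tested) and 5 higher (11.6%, against 10.9%). The 12 were *Keap1*, *Nqo1*, *Gclm*, *Gsr*, *Txnrd1*, *Prdx1*, *Prdx2*, *Prdx6*, *Gpx1*, *Gpx7*, *Gpx8* and *Gstm2*, and the 5 were *Nfe2l2*, *Prdx5*, *Prxl2a*, *Cat* and *Gstz1*.

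**Figure D1:**
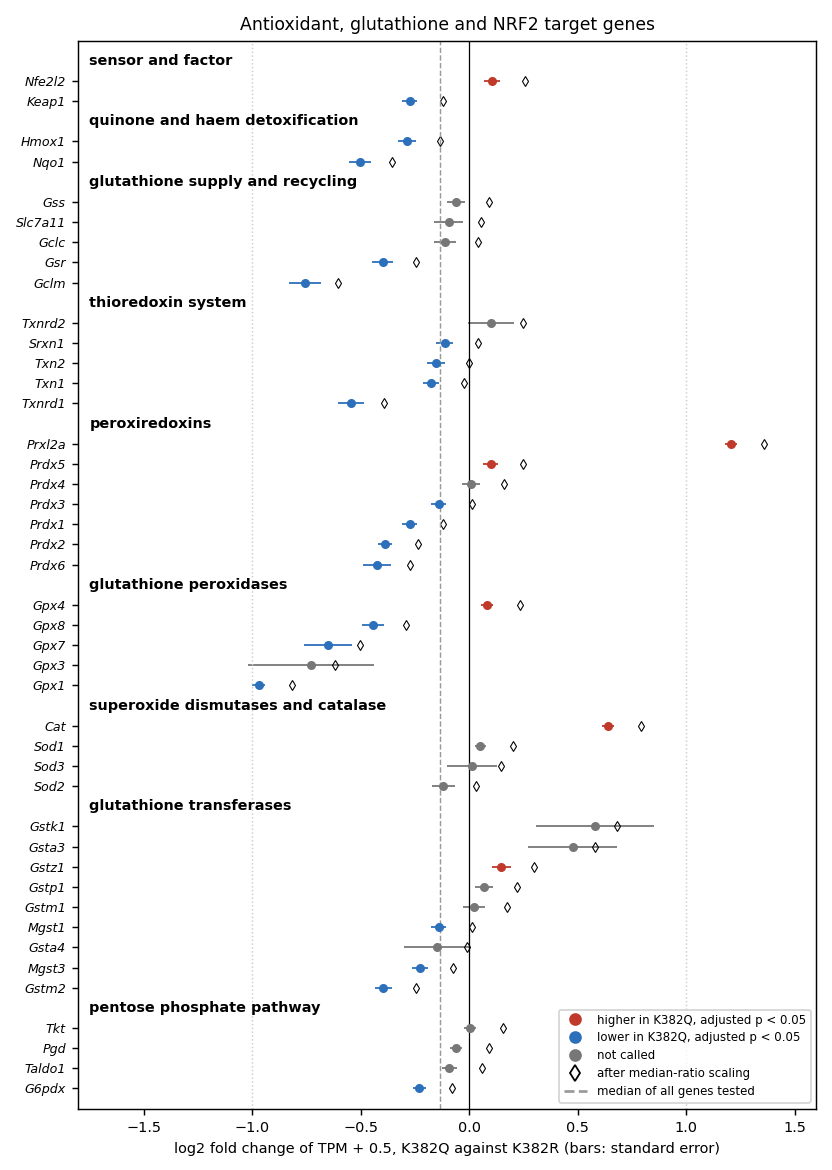
Log2 fold change of TPM + 0.5 in K382Q against K382R for the 43 genes by role, with bars for the standard error (3 libraries of each mutant) and open diamonds for the value after median-ratio scaling. *Prxl2a* (1.21) and *Cat* (0.64) stand to the right and *Gpx1* (-0.97) and *Gclm* (-0.76) to the left of the median of all genes tested (-0.14, dashed), with dotted lines at a fold change of 2.

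The sensor and the factor of the pathway moved apart by small amounts. *Nfe2l2* had a TPM of 74.1, 74.1 and 73.3 in K382Q and 70.5, 69.2 and 66.1 in K382R. Each K382Q library was above each K382R library, and the log2 fold change was 0.11 (SE 0.0355, adjusted p = 0.0396). That call was near the threshold, and it was lost without any 1 of the libraries other than K382R replicate 1, up to an adjusted p of 0.131 without K382R replicate 3. It was also lost with replicate numbers as a block (limma, adjusted p = 0.0629), with no intensity trend (0.0908) and with no filter on low values (0.0502). The log2 fold change of *Nfe2l2* was 0.26 after median-ratio scaling and 0.27 with quantile normalization, and it was called with both. *Keap1* had a TPM of 64.1, 64.2 and 64.7 in K382Q and 76.8, 80.5 and 76.4 in K382R. Its groups did not overlap, and its log2 fold change of -0.27 (SE 0.0341, adjusted p = 0.000401) was -0.12 after median-ratio scaling and still called. These are transcript levels, while NRF2 is known to be controlled mainly through the stability of its protein.

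Of the classic NRF2 targets outside the thiol systems, *Nqo1* encodes a quinone reductase and *Hmox1* the inducible haem oxygenase. *Nqo1* had a TPM of 14.4, 13.9 and 14.0 in K382Q and 19.7, 21.0 and 20.0 in K382R. All K382Q libraries were lower, with a log2 fold change of -0.50 (SE 0.0511, adjusted p = 0.000143) on the TPM scale and -0.35 after median-ratio scaling. *Hmox1* had a TPM of 272, 299.6 and 286 in K382Q and 351, 356 and 337 in K382R. It was lower in K382Q with no overlap, at a log2 fold change of -0.28 (SE 0.0414, adjusted p = 0.000871), but at -0.13 it was not called after median-ratio scaling (limma, adjusted p = 0.0616), and it was called with quantile normalization.

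Among the genes of glutathione supply, the change lay in *Gclm* and *Gsr*. *Gclm* (GRCm39 chr3:122039206-122064381), the modifier subunit of glutamate-cysteine ligase, had a TPM of 42.3, 39.1 and 37.0 in K382Q and 74.2, 63.1 and 63.8 in K382R. The K382R libraries were all higher, by 1.70 times on average, and the log2 fold change was -0.76 (SE 0.0742, adjusted p = 0.000119). *Gclc*, the catalytic subunit of the same enzyme, had a TPM of 49.6, 45.2 and 48.3 in K382Q and 50.6, 49.7 and 54.1 in K382R. Its log2 fold change was -0.11 (95% interval -0.23 to 0.0073) and it was not called (adjusted p = 0.111). So *Gclc* stood above *Gclm* in each K382Q library and below it in each K382R library. *Slc7a11*, the cystine carrier that feeds the pathway, had a TPM of 19.8, 17.1 and 17.8 in K382Q and 20.3, 19.5 and 18.7 in K382R, and the groups overlapped (log2 fold change -0.094, 95% interval -0.25 to 0.062). *Gss*, glutathione synthetase, was likewise not called (-0.060, 95% interval -0.15 to 0.033). *Gsr*, the reductase that restores glutathione with NADPH, was lower in each K382Q library, at a TPM of 53.5 ± 2.38 against 70.6 ± 3.04 (SD, n = 3 each) and a log2 fold change of -0.40 (SE 0.0480, adjusted p = 0.000341).

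*Gclm* overlaps the antisense gene *Gm17494* over 14775 bases of the genome, and the sources used here do not say whether the counting used strand. *Gm17494* was listed at a TPM of 14.3, 19.3 and 89.0 in K382Q and 88.0, 50.9 and 32.8 in K382R. It overlapped between the mutants and within K382Q was highest where *Gclm* was lowest, within K382R highest where *Gclm* was highest. *Gss* overlaps *Acss2*, acetyl-CoA synthetase, whose TPM was 168 to 175 in K382Q and 69.5 to 77.2 in K382R.

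In the thioredoxin system the cytosolic reductase was the gene that fell most. *Txnrd1* had a TPM of 108, 106 and 120.4 in K382Q and 155, 160.2 and 173 in K382R. No K382Q library reached the K382R range, and the log2 fold change was -0.54 (SE 0.0597, adjusted p = 0.000211) on the TPM scale and -0.39 after median-ratio scaling. *Txnrd2*, its mitochondrial counterpart, overlapped between the mutants at 14.8 ± 0.938 against 13.8 ± 2.05 (SD, n = 3 each) and was not called. *Srxn1*, sulfiredoxin, which repairs overoxidized peroxiredoxins, had a TPM of 62.6, 58.1 and 58.9 in K382Q and 64.7, 65.6 and 63.8 in K382R. Its log2 fold change was -0.11 (SE 0.0394, adjusted p = 0.0486) on the TPM scale and 0.039 after median-ratio scaling, where it was not called, and the TPM call was lost without any 1 library other than K382Q replicate 1. The thioredoxins *Txn1* and *Txn2* were called lower with TPM, at -0.18 and -0.15, and lay at -0.025 and 0.00017 after median-ratio scaling, where neither was called. The *Txn2* call with TPM was also lost without K382Q replicate 3, K382R replicate 1 or K382R replicate 2.

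The peroxiredoxins, abundant thiol peroxidases most of which use thioredoxin, moved in both directions. *Prdx1*, *Prdx2* and *Prdx6*, the cytosolic members, were lower in each K382Q library, with log2 fold changes of -0.27, -0.39 and -0.42, and stayed called after median-ratio scaling at -0.12, -0.24 and -0.27. *Prdx6*, which has a single active cysteine and is reduced by glutathione, had a TPM of 73.1, 78.5 and 67.6 in K382Q and 91.4, 99.5 and 104 in K382R (SE 0.0652, adjusted p = 0.00115). *Prdx2* overlaps *Junb* on the other strand by 351 bases, and *Junb* was also lower, at a TPM of 46.3 to 50.2 against 85.6 to 87.4. *Prdx3*, in mitochondria, was called lower with TPM at -0.14 and lay at 0.012 after median-ratio scaling, where it was not called. *Prdx4*, in the endoplasmic reticulum, was not called with TPM (0.0083) and was called higher after median-ratio scaling (0.16). *Prdx5*, in mitochondria and peroxisomes, was slightly higher, at 237 ± 4.12 against 221 ± 8.07 (SD, n = 3 each), with a log2 fold change of 0.10 (adjusted p = 0.0463) whose call was lost without any 1 of K382Q replicates 2 and 3 and K382R replicates 1 and 2. After median-ratio scaling *Prdx5* lay at 0.25 and was called.

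*Prxl2a* (GRCm39 chr14:40715697-40735745, minus strand) encodes a peroxiredoxin-like protein with a thioredoxin-like fold. Its TPM was 215, 219 and 219 in K382Q and 94.3, 92.5 and 94.9 in K382R. The lowest K382Q library was above the highest K382R library by more than the whole spread of either group, and the log2 fold change was 1.21 (SE 0.0278, adjusted p = 2.51e-07). It was 1.36 after median-ratio scaling and lay between 1.20 and 1.36 over all 16 alternative fits. With it the summed peroxiredoxin TPM was 1723 ± 6.98 in K382Q and 1805 ± 24.7 in K382R (SD, n = 3 each), a ratio of 0.954. This direction holds on the TPM scale, and after median-ratio scaling the sum is higher in K382Q.

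The glutathione peroxidases held the largest fall of the 43 genes. *Gpx1* (GRCm39 chr9:108216102-108217542), the cytosolic selenoenzyme that removes hydrogen peroxide, had a TPM of 233, 243 and 232 in K382Q and 457, 461 and 470.4 in K382R. The K382R libraries were nearly double, and the log2 fold change was -0.97 (SE 0.0299, adjusted p = 6.49e-07), just short of the 2-fold threshold. *Gpx4* had a TPM of 1119, 1162 and 1130.1 in K382Q and 1079, 1068 and 1077 in K382R. It was above in each K382Q library, but by little, with a log2 fold change of 0.081 (SE 0.0270, adjusted p = 0.0388). The change was 0.23 after median-ratio scaling, where *Gpx4* was called, and -0.043 with quantile normalization, where it was not called. The call with TPM was also lost without any 1 library other than K382Q replicate 1. *Gpx7* and *Gpx8*, which act in the endoplasmic reticulum, were lower in K382Q with no overlap, with log2 fold changes of -0.65 (SE 0.111, adjusted p = 0.00197) and -0.44 (SE 0.0517, adjusted p = 0.000284). *Gpx3*, the secreted form, was rare, at a TPM of 0.512, 0.923 and 1.41 in K382Q and 1.93, 1.21 and 2.51 in K382R. Its groups overlapped and it was not called (log2 fold change -0.73, 95% interval -1.40 to -0.056, adjusted p = 0.0721). It was called lower without K382Q replicate 3 or K382R replicate 2, and with replicate numbers as a block.

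**Figure D2:**
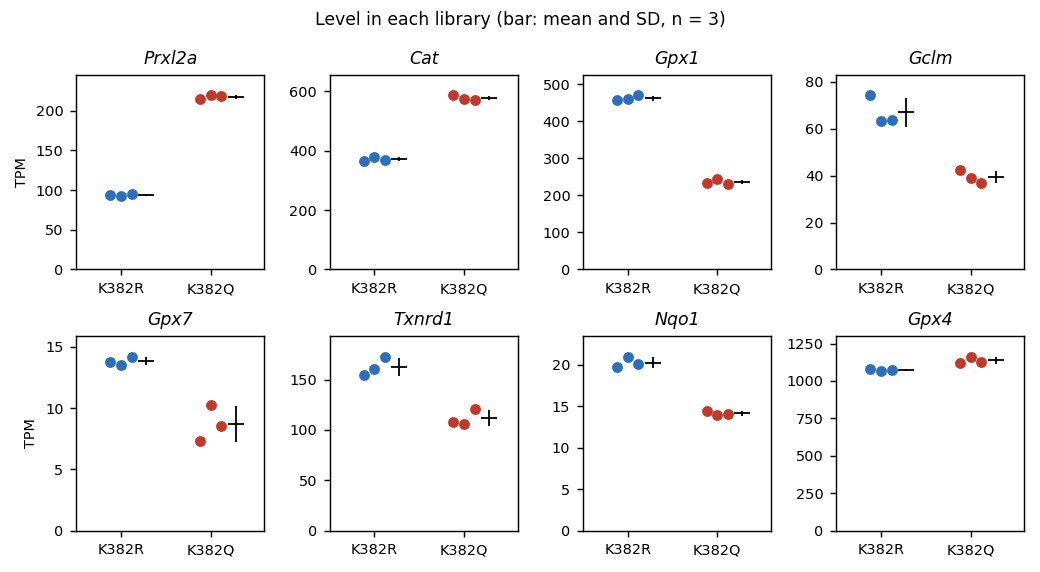
TPM of 8 of the genes in each of the 3 K382R and 3 K382Q libraries (points), with the mean and SD beside them and axes that start at 0. The groups are apart in all 8 panels, where *Prxl2a*, *Cat* and *Gpx4* are higher in K382Q and *Gpx1*, *Gclm*, *Gpx7*, *Txnrd1* and *Nqo1* lower.

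Catalase, the peroxisomal enzyme that splits hydrogen peroxide, rose. *Cat* (GRCm39 chr2:103284194-103315505, minus strand) had a TPM of 587, 576 and 573 in K382Q and 365, 378 and 371 in K382R. Each K382Q library was above all K382R libraries, and the log2 fold change was 0.64 (SE 0.0268, adjusted p = 2.34e-06). In K382R the *Gpx1* level was above the *Cat* level in each library, and in K382Q it was below. The superoxide dismutases were not called with TPM. *Sod2*, the mitochondrial form, had a TPM of 78.0, 67.7 and 71.9 in K382Q and 77.2, 78.9 and 80.0 in K382R, with overlapping groups (log2 fold change -0.12, 95% interval -0.24 to 0.0024), and without K382Q replicate 1 it was called lower. *Sod1* lay at 0.051 with TPM and was called higher at 0.20 after median-ratio scaling, while it was -0.068 with quantile normalization and not called. *Sod3*, the extracellular form, was low, at 3.78 ± 0.137 against 3.76 ± 0.474 (SD, n = 3 each).

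Glutathione transferases join glutathione to electrophiles, and their 9 genes here ranged from -0.40 to 0.58 in log2 fold change. *Gstm2* had a TPM of 62.1, 65.8 and 67.0 in K382Q and 84.2, 85.6 and 86.8 in K382R. It was lower in each K382Q library (log2 fold change -0.40, SE 0.0384, adjusted p = 0.000112), while *Gstm1* beside it in the same gene cluster was not called with TPM (0.022) and was called higher at 0.17 after median-ratio scaling. *Gstz1*, which also acts in tyrosine breakdown, had a TPM of 38.0, 39.1 and 37.1 in K382Q and 35.0, 32.6 and 35.2 in K382R. It was slightly higher without overlap (log2 fold change 0.15, SE 0.0457, adjusted p = 0.0288), but the call was lost without K382Q replicate 1, K382Q replicate 2 or K382R replicate 2, and the adjusted p reached 0.0951 over the alternative fits. After median-ratio scaling *Gstz1* lay at 0.30 and was called. The membrane-bound *Mgst1* and *Mgst3* were called lower with TPM, at -0.14 and -0.22, and not after median-ratio scaling, at 0.011 and -0.073, and again with quantile normalization. *Gstp1*, *Gsta4*, *Gsta3* and *Gstk1* were not called with TPM, and *Gstp1* was called higher at 0.22 after median-ratio scaling. *Gstk1* was called higher without K382Q replicate 1 (limma, adjusted p = 0.0356) and *Gsta3* without K382R replicate 3 (limma, adjusted p = 0.0269). *Gstp1* has close copies beside it, *Gstp2* and *Gstp3*, and the *Gstm* genes resemble each other, so reads can be shared among them.

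The pentose phosphate pathway supplies NADPH to the reductases named above. *G6pdx*, its entry enzyme, had a TPM of 254, 242 and 242 in K382Q and 285, 293 and 287 in K382R. It was lower with no overlap (log2 fold change -0.23, SE 0.0309, adjusted p = 0.000588), and at -0.077 it was not called after median-ratio scaling (limma, adjusted p = 0.0618), though it was with quantile normalization. *Pgd*, *Taldo1* and *Tkt* had log2 fold changes of -0.061, -0.091 and 0.0046 with TPM and were not called. After median-ratio scaling *Pgd* (0.091) and *Tkt* (0.16) were called higher, *Tkt* also with quantile normalization and with FPKM. *Taldo1* was called lower without K382R replicate 3 (limma, adjusted p = 0.0268).

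By the place where the enzymes act, a grouping made after the values were seen and not tested, 5 of 6 genes of the endoplasmic reticulum were lower with TPM (against 36.9% of all genes tested) and 2 of them, *Gpx7* and *Gpx8*, under all 3 scalings (against 19.7%). Of 26 genes of the cytosol and nucleus, 13 were lower and 3 higher with TPM (50% and 11.5%, against 36.9% and 11.1%). Under all 3 scalings 10 of the 26 were lower and 2 higher (38.5% and 7.69%, against 19.7% and 10.9%). Of 6 mitochondrial genes, 2 were lower and 1 higher with TPM (against 36.9% and 11.1%). Under all 3 scalings 1, *Prdx5*, was higher (against 10.9%) and 0 were lower (against 19.7%). All 5 preadipocyte or fibroblast markers tested were lower in the same libraries. Of the brown or beige markers that passed the filter in both mutants, *Elovl3* and *Ppargc1a* were higher and *Hoxc9* lower. The part of these markers in the counts above was not tested.

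**Figure D3:**
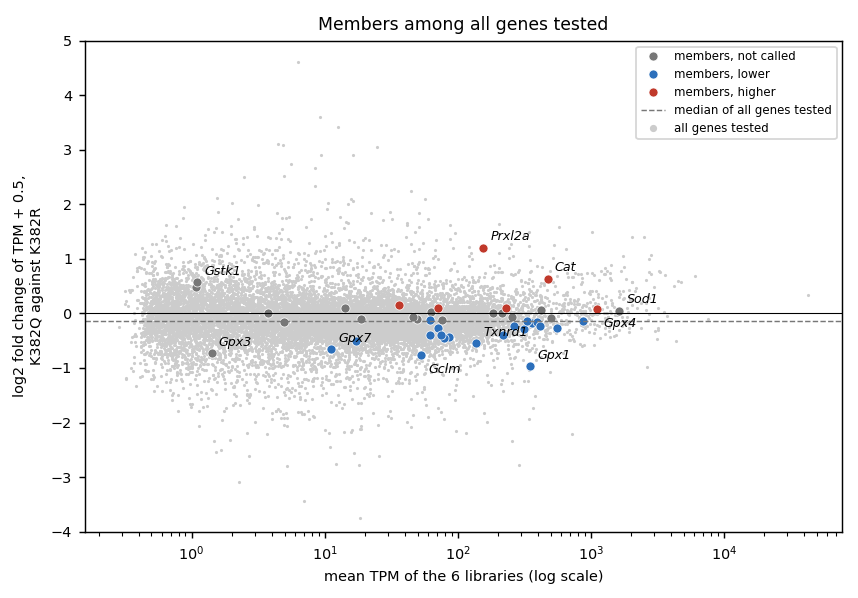
Log2 fold change of TPM + 0.5 in K382Q against K382R over the mean TPM of the 6 libraries (log axis) for all 15426 genes tested (grey), with the 43 genes coloured by their call. *Prxl2a*, *Cat* and *Gpx1* are the members farthest from the median of -0.14 among those with a mean TPM over 100, and *Sod1* is the farthest to the right.

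A wider list of 116 redox genes from general knowledge gave 117 gene IDs, since *Nnt* has 2, and 99 of these were tested. Of the 99, 48 were called lower (48.5%) and 14 higher (14.1%), beside the same background of 36.9% and 11.1%, and their median log2 fold change was -0.17. Under all 3 scalings 30 were lower (30.3%, against 19.7%) and 14 higher (14.1%, against 10.9%). There were 5 DEGs, *Txnip*, *Maoa*, *Mgst2*, *Cyba* and *Msrb3*, against 3.88% of all genes tested.

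*Txnip*, which binds and inhibits thioredoxin, was the one that rose. Its TPM was 2343, 2391 and 2305 in K382Q and 1120.0, 1136 and 1129.7 in K382R. The groups were 2.08 times apart, with a log2 fold change of 1.06 (SE 0.0274, adjusted p = 3e-07) that was 0.85 with quantile normalization. *Maoa*, the outer mitochondrial membrane amine oxidase that releases hydrogen peroxide, had a TPM of 21.7, 21.6 and 19.9 in K382Q and 50.8, 53.1 and 50.9 in K382R. *Cyba*, the p22phox subunit of NADPH oxidases, had a TPM of 7.30, 8.17 and 7.06 in K382Q and 19.3, 19.4 and 16.6 in K382R. Both were lower in each K382Q library, with log2 fold changes of -1.27 (SE 0.0487) and -1.24 (SE 0.0854). The oxidase subunits *Nox4*, *Nox1*, *Cybb*, *Ncf1*, *Duox1* and *Duox2* did not pass the filter on low values. *Mgst2*, a microsomal glutathione transferase, had a TPM of 6.24, 11.5 and 7.85 in K382Q and 22.3, 22.7 and 23.1 in K382R, a log2 fold change of -1.40 (SE 0.182, adjusted p = 0.00048). *Msrb3*, a methionine sulfoxide reductase, stood near the 2-fold threshold at a TPM of 11.8, 12.7 and 12.1 in K382Q and 23.7, 25.3 and 25.9 in K382R.

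Of the other NRF2 control genes, 7 of 15 were lower with TPM and none higher, against 36.9% and 11.1% of all genes tested. After median-ratio scaling 3 were lower (20%, against 20.4%) and 1 higher (6.67%, against 19.8%). Under all 3 scalings 2 were lower (13.3%, against 19.7%) and 0 higher (against 10.9%). *Mafk*, a small MAF partner of NRF2, fell most, at a TPM of 15.5 ± 0.365 against 25.6 ± 0.414 (SD, n = 3 each) and a log2 fold change of -0.71 (SE 0.0465, adjusted p = 1.67e-05). *Bach1*, the repressor that competes with NRF2 for AREs, had a TPM of 14.4, 12.9 and 14.2 against 17.2, 17.7 and 17.7, with no overlap (log2 fold change -0.33, adjusted p = 0.00265), and was not called with quantile normalization. *Sqstm1*, p62, which can draw KEAP1 into autophagy, was lower at 666 ± 11.8 against 844 ± 17.6 (SD, n = 3 each), a log2 fold change of -0.34 (adjusted p = 5.5e-05). Of the ferritin genes, the light chain *Ftl1* was lower, at a log2 fold change of -0.47. The heavy chain *Fth1* was not called with TPM (0.031), was called higher at 0.18 after median-ratio scaling, and was -0.11 with quantile normalization.

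Of 10 further pentose phosphate and NADPH genes tested, 4 were higher with TPM (*Me2*, *Nadk2*, *Pgls* and *Idh2*) and 2 lower (*H6pd* and *Nadk*), and each of these calls held under all 3 scalings. These were 40% and 20% of the 10, against 11.1% and 36.9% of all genes tested with TPM and 10.9% and 19.7% under all 3 scalings. *Rpia* (0.20) and *Shpk* (0.36) were also called higher after median-ratio scaling, and again with quantile normalization, but not with TPM. Of 17 other NRF2-linked targets tested, 9 were lower with TPM (52.9%, against 36.9%) and 4 higher (23.5%, against 11.1%), and under all 3 scalings 4 were lower and 4 higher (23.5% each, against 19.7% and 10.9%). The higher ones include *Me1* and *Idh1*, which also supply NADPH. *Me1*, cytosolic malic enzyme, had a TPM of 358, 334 and 344 in K382Q and 272, 274 and 263 in K382R. It was higher with no overlap (log2 fold change 0.36, SE 0.0338, adjusted p = 0.000101). *Idh1*, which makes cytosolic NADPH from isocitrate, was higher by 0.52 in log2 fold change, and *Me2*, *Nadk2*, *Pgls* and *Idh2* by 0.37, 0.52, 0.29 and 0.14. *H6pd*, the endoplasmic reticulum counterpart of *G6pdx*, and *Nadk*, which makes NADP, lay at -0.42 and -0.28. Of 12 further genes of glutathione supply and breakdown tested, 5 were lower with TPM (41.7%, against 36.9% of all genes tested) and 2 higher (16.7%, against 11.1%). Among those of breakdown, under all 3 scalings *Oplah* (0.63) and *Chac1* (0.38) were higher and *Ggt5* (-0.82) and *Ggt7* (-0.63) lower, while *Chac2* and *Ggct* were not called. *Cth* (-0.39), which makes cysteine, was also lower under all 3 scalings.

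**Figure D4:**
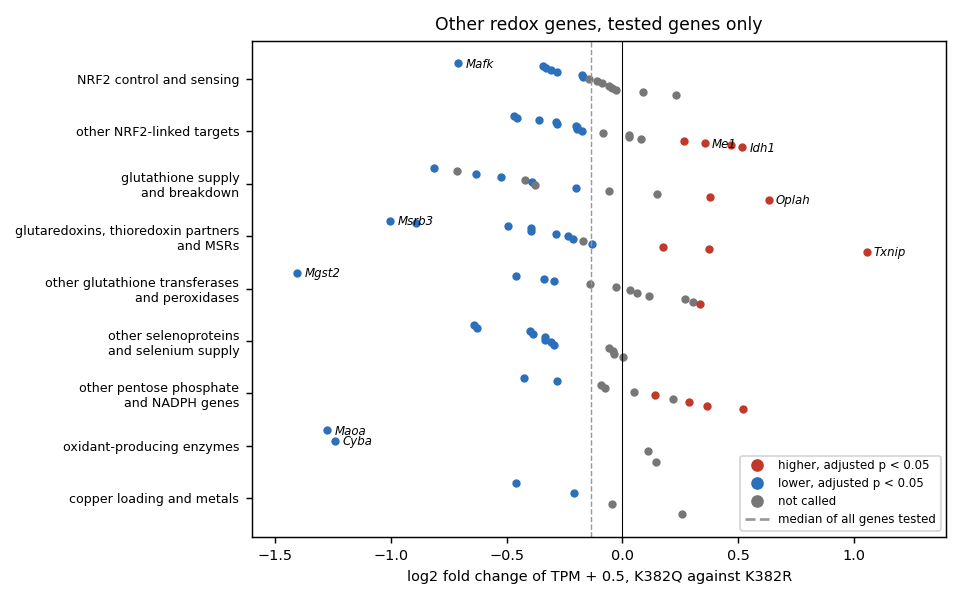
Log2 fold change of TPM + 0.5 in K382Q against K382R for the 99 tested genes of the wider redox list, 1 point per gene ID, by group and coloured by call. *Txnip* (1.06) is alone to the right of 1, and *Mgst2* (-1.40), *Maoa* (-1.27) and *Cyba* (-1.24) lie farthest to the left.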

How the data were processed

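The authors trimmed the reads with TrimGalore, used HISAT2 for alignment to the GRCm39 genome and StringTie for gene levels, as the paper's methods state, and the annotation release is not given in the sources used here. They deposited 1 table per library with 3 units. The deposited coverage is the mean read depth per base, a signal without normalization. The deposited FPKM is scaled to the library, and the deposited TPM to 1 common total, so TPM shows shares of the transcripts. TPM of repeated gene IDs (at most 5 per library) were summed. Read counts were not analysed here, so the study's own test was not used.

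The mutants were compared with limma 3.58.1 in R 4.3.3 (two-sided, intensity trend) on log2(TPM + 0.5), over genes whose TPM was 0.5 or more in 3 or more libraries, with Benjamini-Hochberg adjustment over all 15426 genes. Fold changes on this scale understate changes of low genes. The fit was tested on simulated data with 200 genes changed. An exact permutation test of 3 against 3 cannot go below p = 0.1. Other steps used Python 3.11.15 with pandas 2.3.3. At most 0.0162% of expressed genes had identical TPM in any pair of libraries. Promoter windows came from RefSeq (GRCm38.p6), gene coordinates from the tables (GRCm39).

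The fit was repeated with FPKM, with median-ratio scaling or quantile normalization, with a pseudocount of 1 or 0.1, with a minimum TPM of 1 or none, without the trend, with array weights, with replicate numbers as a block, and without each library. Values in every library are given for DEGs, for the largest called rise and fall of each role, and for the main genes of the pathway. *Gsr*, *Acss2*, *Junb* and other genes named beyond this were chosen after their values were seen. Sites of action and selenoproteins were assigned from general knowledge after the values were seen. The members and lists were chosen with earlier results of these data known.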

Additional observations from a re-analysis of the deposited data

How the results depend on the processing

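Of the 26 called genes, 14 kept their direction and call under all 16 alternative fits, *Prxl2a* and *Cat* higher and 12 lower, and over the 43 genes 588 of 688 comparisons did so. How many of all genes tested did so was not counted, so the 14 of 26 has no background to be read against. Median-ratio scaling called 12 of the 43 higher and 12 lower, 23 of the wider redox list higher, and 3057 of all genes higher and 3153 lower. Quantile normalization called 2954 of all genes higher and 3241 lower, and 23 of the wider list higher. The number of the 43 called higher was 3 with no filter, where 1435 of 29522 genes tested were called higher. It was 2 with no intensity trend and 2 with the replicate block, where 1574 and 1600 of all 15426 genes were called higher. The TPM calls of *Nfe2l2*, *Srxn1*, *Prdx5*, *Gpx4* and *Gstz1* were lost with the replicate block and with no intensity trend. All of these but that of *Gstz1* were also lost with no filter. The median of the 43 was 0.032 after median-ratio scaling, -0.043 with quantile normalization and -0.035 with FPKM. A fold change over 2 left 599 of all genes, 1 of the 43 and 5 of the wider list.

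With each library left out, 21 to 26 of the 43 were called, 2 to 5 higher (2 without K382Q replicate 2 and without K382R replicate 2, 3 without K382Q replicate 3) and 18 to 21 lower. Over all genes 6382 to 7057 were called, 1443 to 1546 higher and 4939 to 5511 lower. Of the wider list 52 to 61 were called. The median of the 43 was -0.14 to -0.090.

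Signs that turned were all of small values. After median-ratio scaling these were *Gclc* (0.041), *Gss* (0.090), *Txn2* (0.00017), *Srxn1* (0.039), *Slc7a11* (0.054), *Prdx3* (0.012), *Sod2* (0.032), *Mgst1* (0.011), *Pgd* (0.091) and *Taldo1* (0.061). With quantile normalization these were *Gclc* (0.056), *Gss* (0.11), *Srxn1* (0.043), *Slc7a11* (0.068), *Gpx4* (-0.043), *Sod1* (-0.068), *Sod2* (0.045) and *Pgd* (0.049), and with FPKM *Gss* (0.023) and *Pgd* (0.023). With each library left out in turn, *Txnrd2* ranged from -0.00088 to 0.20, *Prdx4* from -0.016 to 0.055, *Sod3* from -0.083 to 0.067, *Gstm1* from -0.020 to 0.064 and *Tkt* from -0.0099 to 0.015. The cause was not tested.

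Replicate numbers did not pair the libraries, since same-numbered libraries correlated at -0.018 to 0.051 in their deviations from the group means. *Gpx3*, *Gstk1* and *Gsta3* had a mean TPM under 2, and the part of depth in their spread was not tested. Each was called when 1 library was left out (*Gpx3* without K382Q replicate 3 or K382R replicate 2, *Gstk1* without K382Q replicate 1, *Gsta3* without K382R replicate 3). *Gpx3* was also called with the replicate block.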

Other observations

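Selenoproteins, which carry selenocysteine, were grouped after their values were seen and without a test. Of 17 in the gene lists used here, all were tested, and with TPM 11 were lower and 2 higher in K382Q, against 36.9% and 11.1% of all genes tested. Under all 3 scalings 10 were lower and 1 higher, against 19.7% and 10.9%. *Gpx1* had the largest fall, and *Selenon* and *Selenom*, of the endoplasmic reticulum, had log2 fold changes of -0.64 and -0.63. *Selenop*, the secreted selenium carrier, was lower at a log2 fold change of -0.30. *Gpx4* was called higher with TPM and after median-ratio scaling, and not with quantile normalization.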
